A study of Mus musculus with 3 samples.

Results

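The BCL2 family of cell death regulators was followed through 10 genes of the mouse heart transcriptome, namely Bcl2, Bcl2l1, Mcl1, Bax, Bak1, Bad, Bbc3, Bnip3, Bnip3l and Bcl2l13. They were taken by gene symbol from a table of 16587 genes, and all 10 were found in it. The table holds 3 poly(A) RNA libraries, numbered 1 to 3, from hearts of wild-type (WT) male mice at 12 weeks of age. The labels put all 3 in a single group with no treatment, other genotype or other age, and the strain is not given in the sources used here. They do not say whether the libraries came from separate animals, so every SD and p-value reflects the scatter among these libraries alone, and that scatter may be technical.

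Proteins of this family meet at the outer membrane of mitochondria and share short BCL2 homology (BH) regions through which they bind each other. BCL2, BCL-xL (made from Bcl2l1) and MCL1 hold death in check by binding BAX, BAK and the BH3-only proteins. BAX and BAK are the effectors that open the outer membrane and let cytochrome c out. BH3-only proteins such as BAD and PUMA (made from Bbc3) relay stress or loss of growth signals by occupying the anti-death proteins. BNIP3, NIX (made from Bnip3l) and BCL2L13 are outer membrane proteins best known as receptors for mitophagy, the removal of mitochondria by autophagy. Heart muscle cells are rich in mitochondria and are hardly replaced in the adult, and deletion of Mcl1 from mouse heart muscle is known to cause heart failure.

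Total counts were 25311388, 26398140 and 24914479 in libraries 1, 2 and 3. All 12 cardiomyocyte markers listed, among them Myh6, Tnnt2 and Actc1, were detected, and they summed to between 87670 and 93980 CPM, where the counts of each library are brought to a sum of 1000000. Detection meant at least 1 CPM in all 3 libraries, a level that 71.3% of the genes in the table reached. In RNA from heart tissue, fewer cells of a type and less RNA per cell cannot be told apart. Counts were summed over all transcripts of a symbol, so the long and short forms of Bcl2l1 or Mcl1, which differ in function, were not separated.

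All 10 genes were detected. Levels per length are given in TPM, or counts per kilobase of exon rescaled so that the genes with a length sum to 1000000. Bnip3 and Mcl1 led the 10 genes, at 277 ± 20.8 and 245 ± 18.4 TPM (SD, n = 3). Bcl2, the gene that named the family, was lowest of the 10 at 3.25 ± 0.154 TPM. The median of the 10 genes was 46.4 TPM, against 15.1 TPM for all detected genes, and 8 of the 10 lay above the latter. Without a length correction, 6 of the 10 lay above the median of detected genes, 24.1 CPM. By mean TPM, Bnip3 ranked 518 and Mcl1 ranked 580 among 16077 genes, Bcl2l1 ranked 1047 and Bcl2 ranked 10005.

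**Figure D1:**
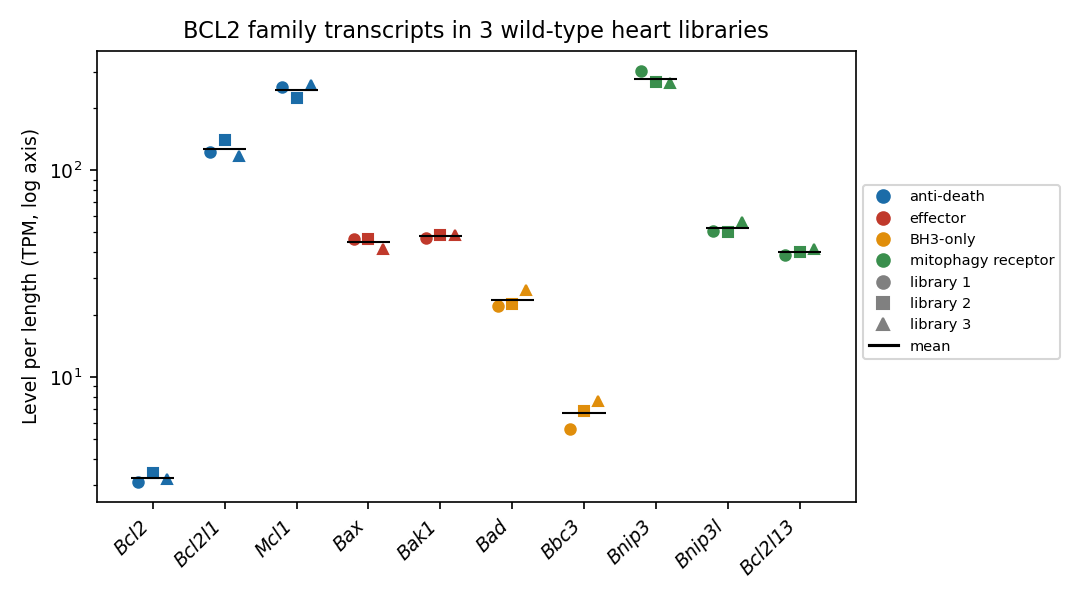
Level per length of each family member in the 3 libraries, in TPM on a log axis, with 1 point for each library, a bar at the mean and colours for the role. Bnip3, Mcl1 and Bcl2l1 stand above 100 TPM in all 3 libraries, and Bcl2 lies between 3.11 and 3.42 TPM.

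The sequences upstream of the start sites of Bnip3 and Mcl1, the most abundant members per length, and of Bcl2, the least abundant, are shown for context. Each is the 250 bases before the RefSeq start site in build GRCm38.p6, an earlier build than the GRCm39 named in the submitters' processing notes. The window of Bnip3 is chr7:138909507-138909756 on the minus strand, that of Mcl1 is chr3:95658471-95658720 on the plus strand, and that of Bcl2 is chr1:106714291-106714540 on the minus strand. Capitals mark ACGTG (the core bound by hypoxia-inducible factors), GGGCGG (the GC box), CCAAT and TATAAA, each searched on both strands, and matches that overlap run together.
Bnip3: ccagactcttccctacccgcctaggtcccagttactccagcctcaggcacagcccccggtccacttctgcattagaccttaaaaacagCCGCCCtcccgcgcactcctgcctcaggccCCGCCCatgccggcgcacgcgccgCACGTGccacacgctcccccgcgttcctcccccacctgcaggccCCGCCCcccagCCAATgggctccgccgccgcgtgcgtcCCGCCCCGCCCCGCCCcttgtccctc
Mcl1: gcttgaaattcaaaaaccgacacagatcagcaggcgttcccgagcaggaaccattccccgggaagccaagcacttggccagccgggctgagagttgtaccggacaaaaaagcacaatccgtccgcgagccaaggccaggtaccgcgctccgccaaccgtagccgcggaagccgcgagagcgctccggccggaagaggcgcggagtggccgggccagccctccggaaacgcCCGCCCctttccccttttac
Bcl2: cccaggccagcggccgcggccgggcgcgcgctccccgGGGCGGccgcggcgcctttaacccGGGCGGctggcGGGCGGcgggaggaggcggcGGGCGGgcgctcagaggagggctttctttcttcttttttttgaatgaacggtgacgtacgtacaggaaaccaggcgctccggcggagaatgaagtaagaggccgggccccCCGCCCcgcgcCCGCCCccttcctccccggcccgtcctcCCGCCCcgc
The Bnip3 window held 1 run of ACGTG, 4 runs of GGGCGG and 1 CCAAT, that of Mcl1 held 1 GGGCGG, and that of Bcl2 held 7 runs of GGGCGG. Among 32851 RefSeq windows of the same length, 16.6% held ACGTG, 32.7% GGGCGG, 33.9% CCAAT and 12.4% TATAAA. RefSeq windows were matched for 9 of the 10 genes and numbered 14, and a pair of those of Bbc3 overlap. Counted by window, as for the background, ACGTG occurred in 3 of 14, GGGCGG in 9, CCAAT in 3 and TATAAA in 0. Counted by gene, ACGTG occurred in 3 of 9 (Bnip3, Bax and Bbc3), GGGCGG in 7 of 9, and TATAAA in 0 of 9. Genes with several windows have more places for a match. The ratio of observed to expected CpG was 0.905 for Bnip3, 1.01 for Mcl1 and 1.03 for Bcl2, against a median of 0.373 over all windows. Of the 14 windows, 12 reached a ratio of 0.6, a limit often used for CpG islands, against 34.0% of all windows. A low and a high member of the family thus shared CpG-rich windows with GC boxes, and a match describes letters, not binding.

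The anti-death genes differed widely from each other. Mcl1, whose protein is short-lived and holds BAK and BH3-only proteins, had 7336, 6884 and 7106 counts in libraries 1, 2 and 3, or 253, 223.5 and 257 TPM. Library 2 was lowest, and the 3 values lay within 1.11-fold of each other in CPM. Bcl2l1, the gene of BCL-xL, had 4746, 5783 and 4318 counts, or 122, 139.9 and 116.5 TPM. It was highest in library 2, the reverse of Mcl1, with a range of 1.26-fold in CPM. Bcl2, whose protein sits on mitochondria and the endoplasmic reticulum and also binds the autophagy protein Beclin 1, had 242, 282 and 238 counts, or 3.11, 3.42 and 3.22 TPM. Its 3 libraries were close together and below every value of the other 9 genes in TPM.

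Inside each library, Mcl1 exceeded Bcl2 by log2 ratios of counts per kilobase of 6.34, 6.03 and 6.32, a mean of 6.23 ± 0.17 or 75.0-fold. Bcl2l1 exceeded Bcl2 by 5.29, 5.35 and 5.18 (5.27 ± 0.09), which is 38.7-fold. Bcl2 is the longest of the 10 genes, with 9157 bases of annotated exon, and without a length correction these log2 ratios were 4.81 and 4.28. Mcl1 exceeded Bcl2l1 by log2 ratios of 1.05, 0.67 and 1.14 (0.96 ± 0.25), or 1.94-fold, in all 3 libraries. With the longest transcript of each gene as its length that mean was 0.12, and the ranges of the 2 genes then overlapped. With 3 libraries the smallest two-sided p of an exact sign-flip test is 0.25, so ratios here carry no p.

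The effectors were close to each other. Bax, which waits in the cytosol and moves to mitochondria on activation, had 618, 661 and 528 counts, or 46.2, 46.5 and 41.4 TPM. Bak1, whose protein is already in the outer membrane, had 962, 1058 and 940 counts, or 47.1, 48.8 and 48.3 TPM. Bax was lowest in library 3, while Bak1 was nearly the same in all 3. The log2 ratio of Bax to Bak1 was -0.03, -0.07 and -0.22 (-0.11 ± 0.10), and its sign turned with the longest transcript (0.40), so which effector was higher cannot be said. Bcl2 lay below Bax by log2 ratios of -3.89, -3.77 and -3.69 (-3.78 ± 0.10), and by -1.24 without a length correction. Bcl2l1 lay above Bax by 1.40, 1.59 and 1.49 (1.49 ± 0.09), or 2.81-fold, and by 3.03 without a length correction. A ratio to Bax therefore had opposite signs for these 2 anti-death genes in all 3 libraries.

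The BH3-only members were lower. Bad, whose protein binds BCL2 and BCL-xL unless phosphorylated and held by 14-3-3 proteins, had 476, 517 and 547 counts, or 21.9, 22.4 and 26.5 TPM. Bbc3, a target of p53 whose protein PUMA binds all the anti-death proteins, had 101, 131 and 131 counts, or 5.60, 6.84 and 7.63 TPM. Both were lowest in library 1 and highest in library 3 in TPM. At these counts, counting error alone gives Bbc3 a coefficient of variation of 9.09%, and 14.0% was seen. Bad exceeded Bbc3 by log2 ratios of 1.96, 1.71 and 1.79 (1.82 ± 0.13), or 3.53-fold.

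Among the mitophagy receptors Bnip3 stood apart. Bnip3, known in many cells as a target of hypoxia-inducible factors, had 5787, 5469 and 4810 counts, or 301, 268 and 262.8 TPM. Bnip3l, known for clearing mitochondria from maturing red cells as well as in heart, had 1672, 1754 and 1758 counts, or 51.1, 50.4 and 56.4 TPM. Bnip3 was highest and Bnip3l lowest in CPM in library 1. Bcl2l13, described as the mammalian counterpart of the yeast mitophagy receptor Atg32, had 2992, 3276 and 3054 counts, or 38.8, 40.0 and 41.6 TPM. It varied least of the 10 genes, with a coefficient of variation of 2.52% in CPM.

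Bnip3 exceeded Bnip3l by log2 ratios of 2.56, 2.41 and 2.22 (2.40 ± 0.17), or 5.26-fold, and by 1.63 without a length correction. It exceeded Bcl2l13 by 2.96, 2.74 and 2.66 (2.79 ± 0.15), or 6.90-fold, and by 0.78 without a length correction, since Bcl2l13 has 9089 bases of annotated exon. Bnip3l exceeded Bcl2l13 by 0.40, 0.34 and 0.44 (0.39 ± 0.05), and the sign turned to -0.85 without a length correction.

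**Figure D2:**
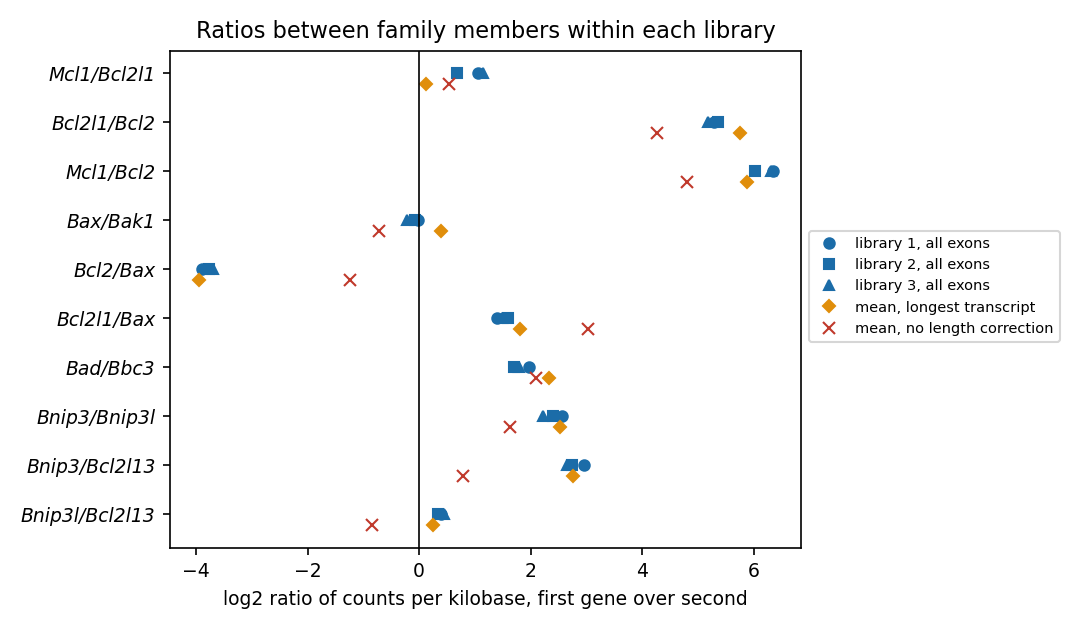
Log2 ratio of counts per kilobase for 10 pairs of family members, first gene over second, with 1 blue point for each library and the mean under other length settings below it. Library points of a pair lie close together, and the Bax/Bak1 and Bnip3l/Bcl2l13 ratios cross 0 with another length setting.

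In order of mean TPM the family ran Bnip3, Mcl1, Bcl2l1, Bnip3l, Bak1, Bax, Bcl2l13, Bad, Bbc3 and Bcl2. Bax and Bcl2l13 were the only neighbours whose ranges over the 3 libraries overlapped. With the longest transcript as length, Bax moved above Bnip3l, Bak1 fell below Bcl2l13, and the ranges of Mcl1 and Bcl2l1 and of Bax and Bnip3l overlapped. Bnip3 stayed first, and Bad, Bbc3 and Bcl2 stayed last in that order. By CPM, with no length correction, Mcl1 was first (260.8 to 289.8 CPM) and Bnip3 second (193.1 to 228.6 CPM), and Bbc3 was last, below Bcl2.

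Summed by role, the 3 anti-death genes held 378, 367 and 377 TPM in libraries 1, 2 and 3, and the 3 mitophagy receptors 391, 358 and 361 TPM. The effectors Bax and Bak1 together held 93.3, 95.3 and 89.8 TPM, and Bad with Bbc3 27.5, 29.3 and 34.1 TPM. Anti-death transcripts were thus 43.1 ± 0.637% of the TPM of these 10 genes, and mitophagy receptors 42.7 ± 1.12%. Effectors made up 10.7 ± 0.442% and BH3-only members 3.50 ± 0.434%. Each gene was counted in 1 role only. Relatives outside the 10 genes were left out, such as the anti-death gene Bcl2l2 (45.8 TPM) and the BH3-only gene Bik (7.86 TPM). The anti-death sum was 4.03 ± 0.176 times the effector sum, and 4.21 with the longest transcripts. Without a length correction it was 7.76 times. Mcl1 alone made up 28.2 ± 1.79% of the TPM of the 10 genes, Bnip3 32.0 ± 1.71%, Bcl2l1 14.6 ± 1.65% and Bcl2 0.375 ± 0.0261%. These shares depend on the length used, which their SD does not cover. With all exons Mcl1 held 245 and Bcl2l1 126 of 867 TPM. With the longest transcripts they held 181 and 166.5 of 818 TPM. Without a length correction Bcl2 held 9.93 of 968 CPM. These are transcript levels, and protein levels were not measured.

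The test of differences between the 3 libraries called no family member. Against genes of the same level, 0.591% of 12521 tested genes differed more between libraries (edgeR, Benjamini-Hochberg adjusted p under 0.05), and 0 of the 10 family members did. The count over all genes was 74, and it was 17 without library 1, 51 without library 2, 39 without library 3 and 126 with no filter of low counts, with 0 family members in each. At an unadjusted p under 0.05, which 5.39% of all tested genes reached, the count of members was also 0, and with DESeq2's dispersion trend it was 0 by either measure, against 0.543% of all genes called there after adjustment. With that trend 510 of 12521 genes had an unadjusted p under 0.05. All 10 members passed the filter of low counts. At such shares, counts of 0 among 10 genes say little about the family. The lowest unadjusted p was that of Bcl2l1, at 0.111 (edgeR adjusted p = 0.999), with 187.5, 219 and 173 CPM. The ratio of the highest to the lowest library ran from 1.05 for Bcl2l13 to 1.32 for Bbc3.

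The SD of log2 CPM had a median of 0.11 over the 10 genes and 0.14 over all tested genes. Genes with more counts vary less, so each member was also set beside the tested genes within 0.5 log2 CPM of its own level. Of the 10 genes, 8 had a smaller SD than the median of these neighbours. The exceptions were Bcl2l1, with an SD of 0.17 against 0.09 and above 87.6% of 662 neighbours, and Bnip3, with 0.12 against 0.08 and above 74.8% of 595. Bak1, Bcl2l13, Bnip3l and Bcl2 lay lower, above 11.9%, 11.9%, 17.3% and 18.2% of their neighbours. In CPM, library 2 had the top value for 5 members, library 3 for 3 and library 1 for 2. Over all tested genes these shares were 32.6%, 38.6% and 28.8%.

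**Figure D3:**
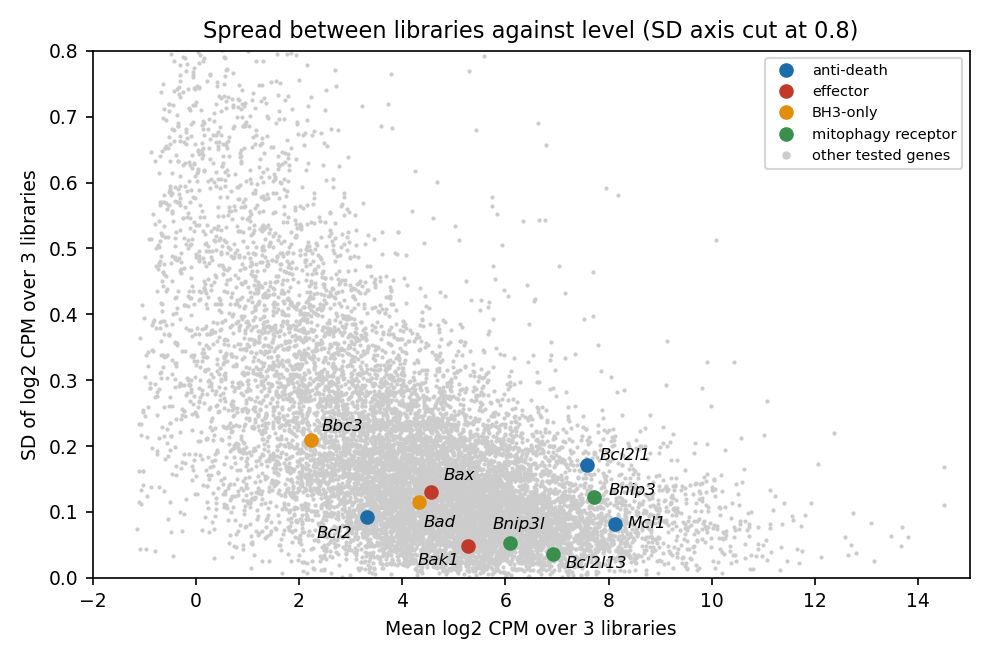
SD of log2 CPM over the 3 libraries against mean log2 CPM, with the 10 family members in colour and the other tested genes in grey. The axis ends at an SD of 0.8, above which 160 tested genes are not drawn. Bcl2l1 and Bnip3 lie above the middle of genes of their level, and Bak1, Bnip3l and Bcl2l13 near the lower edge.

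Markers of some other cell types varied between these libraries. Erythroid markers summed to 2284, 1100 and 1755 CPM in libraries 1, 2 and 3, with 8 of 11 detected and Ermap at 0 in all, and 5 of 9 tested members passed the threshold (Hbb-bs, Hba-a1, Hbb-bt, Hba-a2 and Alas2, the hemoglobin copies being uncertain gene by gene). Bnip3l and Bcl2l1, both used by maturing red cells, stood at 66.1, 66.4 and 70.6 CPM and at 187.5, 219 and 173 CPM. Immediate early genes, a class that Mcl1 joins in some cells, summed to 1915, 1682 and 1341 CPM, with 23 of 25 detected and 10 of 25 past the threshold (Ccn1, Nr4a1, Atf3, Egr1, Egr3, Ier5, Junb, Fos, Dusp1 and Zfp36). Mcl1 stood at 289.8, 260.8 and 285 CPM. Whether red cells or immediate early induction bear on these members was not tested. Liver markers summed to 255, 80.9 and 103 CPM (3 of 14 detected, with Ahsg, Apoa2, Hp, Serpina1b and Serpina1e the 5 of 6 tested that were called). These sums include Trf at 83.1, 65.2 and 85.5 CPM. Alb had 1447, 0 and 29 counts and Apoa1 444, 1 and 2, and neither was tested. Mesothelial markers summed to 37.8, 32.8 and 47.4 CPM (2 of 10 detected, 0 of 2 tested called). Library 3 stood apart in the mesothelial list, with Upk3b at 2, 0 and 212 counts, Msln at 0, 0 and 107 and Lrrn4 at 0, 0 and 42, and Krt19, Upk1b and Bnc1 with counts in library 3 alone, while Wt1 went the other way (506, 395 and 252 counts).

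Endothelial (2037 to 2499 CPM), fibroblast (3546 to 3859 CPM), mural (1615 to 1965 CPM) and macrophage markers (1162 to 1224 CPM) were all detected, and of these the fibroblast genes Col1a1 and Col3a1 passed the threshold. Of 10 T and B cell markers 0 were detected (2.35 to 4.78 CPM in sum, with Cd3e and Ms4a1 at 0), of 10 neutrophil markers 3 (8.79 to 19.8 CPM, with Ly6g and Mpo at 0), and of 8 adipocyte markers 0 (1.93 to 3.37 CPM, with Ucp1 at 0). Of 7 atrial markers 5 were detected, and Myl7 (0, 1 and 8 counts) and Sln (0, 0 and 1 counts) were not. The list summed to 511, 273 and 285 CPM, of which Nppa, past the threshold, held 459.9, 225.5 and 232.7 CPM. The part of these cells in the level of any family member was not tested.

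Some members share sequence with other annotated genes, which bears on how reads could be divided. Of the distinct stretches of 50 bases in the annotated transcripts, Mcl1, Bcl2l1 and Bbc3 shared 0% with any other gene. Bnip3l shared 20.8% with its processed pseudogene Bnip3l-ps, which had 125, 83 and 122 counts of its own, or 7.48%, 4.73% and 6.94% of those of Bnip3l. Bnip3 shared 47.2% with other genes on either strand. Among them were AC160336.1 (33.9%) and Gm45507 (15.9%) in the opposite orientation, and Gm16439 (13.5%) and Gm6532 (10.8%) in the same. None of these is in the table as analysed. The counts of Bnip3 and Bnip3l are uncertain for that reason, by an amount that was not measured. Bax shared 8.51% with Gm45808 in the same orientation, also not in the table as analysed. Bad shared 17.2% with Gpr137 (642, 720 and 607 counts) and Bak1 17.1% with Ggnbp1 (221, 271 and 142 counts), genes that overlap them on the opposite strand. Bcl2l13 overlaps the opposite-strand gene Bid, itself a BH3-only family gene, over 628 exon bases, and Bid had 65, 50 and 51 counts. The strandedness of the libraries is not given in the sources used here, and without strand, reads from such overlaps cannot be told apart.

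The other relatives of the family were mostly lower. Of 14 further BCL2 relatives in the table, 8 were detected, with a median of 3.14 TPM over all 14, against 46.4 TPM over the 10 members. Bcl2l2, the gene of the anti-death protein BCL-w, was the highest at 45.8 ± 3.73 TPM (1772, 1965 and 1501 counts), and above Bcl2 in all 3 libraries. Bcl2l12 stood at 11.7 ± 0.311 TPM. Bcl2a1a, Bcl2a1b and Bcl2a1d, near-identical copies known from blood cells and uncertain gene by gene, had 5, 1 and 7, 48, 28 and 49, and 11, 11 and 14 counts. Bcl2l14 was at 0 counts throughout, where 3 counts of each total, or 0.119, 0.114 and 0.120 CPM, is the upper limit for counting error only.

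Among death-promoting relatives, the effector-like Bok (8.92 ± 0.524 TPM) and the BH3-only genes Bik (7.86 ± 0.655 TPM), Bcl2l11 (BIM, 5.41 ± 0.994 TPM), Bmf (4.44 ± 0.379 TPM) and Bid (1.83 ± 0.301 TPM) were detected. Pmaip1, the gene of NOXA, had 13, 3 and 10 counts, and Hrk had 9, 12 and 32, so neither reached 1 CPM in every library. Both are BH3-only genes that many cells induce under stress. By edgeR 0 of the 4 and 0 of the 5 tested relatives in the 2 groups differed between libraries, with 0 in each at an unadjusted p under 0.05. Over all tested genes these shares were 0.591% and 5.39%, so counts of 0 in lists this short say little about them.

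Downstream of the effectors, the cytochrome c gene led its list, and the apoptosome scaffold and a caspase-freed nuclease were among its lowest genes. All 14 genes analysed for the apoptosome, caspases and proteins of the space between the mitochondrial membranes were detected. Cycs, the somatic cytochrome c gene, stood at 476 ± 24.1 TPM, Endog at 171 ± 14.4 TPM, Opa1, which shapes the inner membrane, at 74.9 ± 8.82 TPM and Aifm1 at 63.3 ± 1.66 TPM. Apaf1, the scaffold of the apoptosome, stood at 3.24 ± 0.058 TPM (246, 260 and 241 counts). Dffb, the nuclease freed by caspases, was lowest at 2.26 ± 0.693 TPM. Of the 7 caspase inhibitors 6 were detected. Nol3, a muscle and heart inhibitor known as ARC, was highest at 73.8 ± 4.80 TPM, above Xiap (20.4 ± 3.74 TPM), Birc2 (16.0 ± 1.26 TPM) and Cflar (12.2 ± 2.27 TPM), and Birc5, a gene of dividing cells, had 22, 20 and 24 counts. By edgeR, 0 of 14 and 0 of 7 differed between libraries, with 0 and 1 at an unadjusted p under 0.05 (0.591% and 5.39% of all tested genes).

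Of 15 genes of the death receptor pathway and necroptosis, 13 were detected. Tnfrsf1a, a receptor for tumour necrosis factor, stood at 94.0 ± 16.7 TPM and Fas at 42.1 ± 7.87 TPM, while their ligand genes Tnf (19, 35 and 28 counts) and Fasl (5, 4 and 0 counts) stayed under 1 CPM in at least 1 library. By edgeR 0 of 14 tested genes differed between libraries after adjustment, and 3 did at an unadjusted p under 0.05. Over all tested genes these shares were 0.591% and 5.39%.

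In a list of other mitophagy receptors and related genes, all 18 genes analysed were detected. Map1lc3a, one of the LC3 genes that such receptors bind, stood at 1634 ± 32.3 TPM, the kinase gene Pink1 at 1272 ± 64.9 TPM, Gabarap at 658.5 ± 27.9 TPM and the autophagy receptor Sqstm1 at 572 ± 46.4 TPM. Fundc1, another outer membrane receptor, stood at 41.0 ± 4.16 TPM (723, 928 and 818 counts), near Bcl2l13 and Bnip3l and below Bnip3 in all 3 libraries. Atg7, whose protein activates LC3 for attachment to membranes, was lowest at 7.48 ± 0.0978 TPM (449, 468 and 417 counts). By edgeR 0 of these 18 differed between libraries after adjustment, with 1 at an unadjusted p under 0.05 (0.591% and 5.39% of all tested genes).

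**Figure D4:**
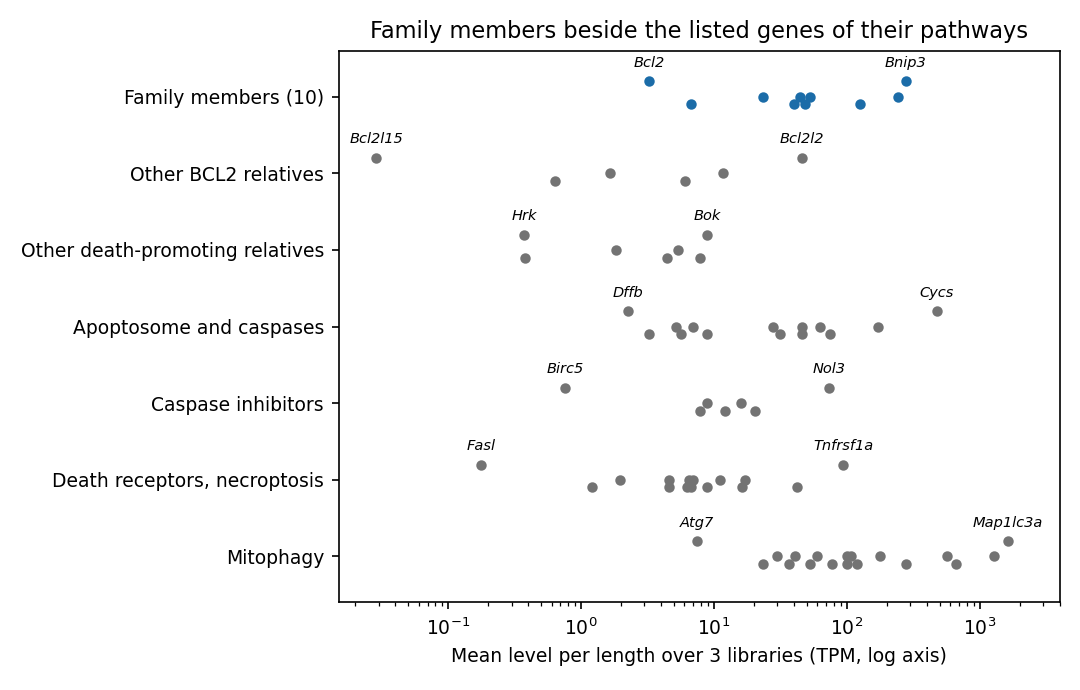
Mean TPM over the 3 libraries of the 10 family members and of listed pathway genes, on a log axis, with the lowest and highest gene of each row named and Bcl2l14 (0 counts) not drawn. The 10 members span 3.25 to 277 TPM, and most other relatives lie below 10 TPM.

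Genes of proteins that bind or modify family members were also all detected. Of 18 partners at mitochondria, at the endoplasmic reticulum or in autophagy, Vdac1, the main channel of the outer membrane, led at 1338 ± 38.7 TPM, with Vdac2, which holds BAK, at 264.5 ± 7.21 TPM. Bag1 (497 ± 5.42 TPM) and Bag3 (329.9 ± 54.4 TPM) are co-chaperone genes, and Bag4 was lowest at 2.90 ± 0.565 TPM. Of 19 genes for kinases, 14-3-3 proteins and ubiquitin enzymes acting on BAD or MCL1, the 14-3-3 gene Ywhae (529 ± 18.0 TPM) and the kinase genes Pim3 (262 ± 27.8 TPM) and Akt1 (241 ± 14.6 TPM) were highest, and Trim17 was lowest at 1.74 ± 0.332 TPM. After adjustment 0 of 18 and 0 of 19 differed between libraries by edgeR, with 1 in each list at an unadjusted p under 0.05. Over all tested genes these shares were 0.591% and 5.39%. DESeq2's dispersion trend also called 0 genes in each of these lists of relatives, caspase, death receptor, mitophagy and partner genes.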

How the data were processed

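Poly(A) RNA from mouse heart was sequenced in 3 libraries of 1 group. The table deposited by the authors holds whole-number counts for each gene symbol, without normalization. HISAT2 2.0.4, Bowtie2 2.2.5, RSEM and build GRCm39 are named per the submitters' processing notes, with no role or order, so the counts may be rounded estimates.

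CPM used library totals of 24914479 to 26398140 counts. Lengths came from GENCODE M21 (GRCm38), matched by symbol for 16077 genes (96.9%), and promoter windows from RefSeq. Ratios added 0.5 counts to both genes. Differences between libraries were tested with edgeR 4.0.16 in R 4.3.3 (filterByExpr, TMM, intercept-only negative binomial fit with trended dispersion, deviance on the chi-square scale, Benjamini-Hochberg over all tested genes, threshold 0.05), after the procedure was tested on simulated data. DESeq2 1.42.0 supplied an alternative trend with a Pearson statistic. Other alternatives were normalization, filter, detection limit, gene length, added counts and leaving out each library.

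Members and lists were chosen with earlier results of these data known. All members are named, and of each list up to 5 of the highest TPM, up to 3 of the lowest and any past the threshold of the edgeR test. With 3 libraries, genes of like pattern were not sought. Some listed genes are not reported here.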

Additional observations from a re-analysis of the deposited data

How the results depend on the processing

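The count of 0 family members differing between libraries was the same with RLE normalization, library totals, no filter, DESeq2's dispersion trend and without each library in turn. In these settings 17 to 126 genes were called out of 12521 to 15994 tested, so a count of 0 among 10 genes says little. All 10 were detected at 0.5 CPM and without each library. At a limit of 5 CPM 9 were detected, since Bbc3 stood at 3.99 and 4.96 CPM in libraries 1 and 2. The ratios depended on gene length. With the longest transcript, the log2 ratio was 0.12 for Mcl1/Bcl2l1, 5.76 for Bcl2l1/Bcl2, 5.88 for Mcl1/Bcl2, 0.40 for Bax/Bak1 (reversed), -3.95 for Bcl2/Bax, 1.81 for Bcl2l1/Bax, 2.33 for Bad/Bbc3 and 0.24 for Bnip3l/Bcl2l13. With no length correction it was 0.53, 4.28, 4.81, -0.72, -1.24, 3.03 and 2.09 for the first 7 of these pairs, 1.63 for Bnip3/Bnip3l, 0.78 for Bnip3/Bcl2l13 and -0.85 for Bnip3l/Bcl2l13 (reversed). Adding 5 counts, or leaving out any 1 library, moved no ratio by more than its SD. RSEM may have used other lengths than these. Depth limits Bbc3 most, at 101 to 131 counts. No paired analysis was possible because there is only 1 group.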

Other observations

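Genes of pathways known to set family members were present at a wide range of levels. Of 16 genes listed for p53 and its targets, a list that also holds Bax and Bbc3, 15 were detected. Ccng1 stood at 809 ± 80.9 TPM, Perp at 242 ± 5.87 TPM, Sesn1 at 188 ± 12.0 TPM and Cdkn1a, the cell cycle inhibitor p21, at 125 ± 17.1 TPM, against 6.69 ± 1.02 TPM for Bbc3. By edgeR 0 of 15 tested genes differed between libraries after adjustment, with 1 at an unadjusted p under 0.05 (0.591% and 5.39% of all tested genes). Of 17 hypoxia-inducible factor targets, which include Bnip3 and Bnip3l, 16 were detected, and Bnip3 was the fifth highest after Ldha (828 ± 46.0 TPM), Pgk1 (509 ± 4.08 TPM), Egln1 (418 ± 8.84 TPM) and Ddit4 (409 ± 60.0 TPM). Car9, a target that is low in most tissues outside hypoxia, had 1, 0 and 2 counts. By edgeR 0 of 16 tested differed between libraries after adjustment, with 2 at an unadjusted p under 0.05, against the same shares over all tested genes.

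All 16 FOXO and fasting targets were detected, led by Pdk4 (991 ± 89.1 TPM), Trim63 (367 ± 35.2 TPM) and Klf15 (176.5 ± 4.12 TPM). In this list 1 gene differed between libraries by edgeR after adjustment, Irs2, with 2292, 894 and 905 counts, and DESeq2's dispersion trend called 1 here and 0 among the p53 and hypoxia lists. Library 1 held more of it than either of the others. Bnip3 was highest in library 1 in CPM, as were 28.8% of all tested genes, within a range of 1.18-fold (edgeR unadjusted p = 0.289). Pdk4 was highest in library 2. A link between Bnip3 and this list was not tested.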
